A study of Arabidopsis thaliana with 10 samples.

Results

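Heterozygous plants of a CesA4 line were compared with heterozygous plants of a CesA6 line, in a study of cellulose synthase mutants of Arabidopsis thaliana that also holds homozygous plants of both lines. The comparison took the 5 arrays whose titles name heterozygous plants, out of 10 arrays in the series, and all 22746 probe sets of the ATH1 array other than the maker's controls. The labels give 3 arrays of heterozygous AtCesA4 plants with the allele irx5-2 and 2 arrays of heterozygous AtCesA6 plants with the allele irx6-1, all Col-0, untreated, 4 weeks old and sampled as rosettes. The other 5 arrays, 3 of homozygous AtCesA4 and 2 of homozygous AtCesA6 plants, entered only the estimate of the spread and a comparison at the end. Heterozygous plants of both lines still carry a mutant allele, and no wild-type array was analysed here. The labels do not say whether the arrays of a group came from separate plants or from pools, so p-values measure the spread between arrays, which may be technical.

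Cellulose synthase complexes sit in the plasma membrane and spin cellulose into the wall. CESA4 belongs to the complex of secondary walls in xylem and fibres, and CESA6 to the complex of primary walls in growing cells. Plants are known to answer wall defects with stress hormones, defence genes and wall-remodelling enzymes. The labels tie the allele irx6-1 to AtCesA6, while TAIR10.1 gives IRX6 to COBL4 (AT5G15630), so the name CesA6 follows the labels alone. The annotation names no probe set for any of these genes, and the genotypes were therefore not checked against transcripts.

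The 5 arrays had the same 2% trimmed mean of 100.01, medians between 32 and 37.68, and correlations of log2 signals from 0.934 to 0.942 among heterozygous CesA4 arrays, 0.946 between the heterozygous CesA6 arrays and 0.924 to 0.939 across the groups. The first principal component of these arrays held 42.2% of the variance and had the CesA4 arrays on its negative and the CesA6 arrays on its positive side. The second, with 23.7%, had heterozygous CesA4 replicates 1 and 3 at its opposite ends. Of 52 marker genes of leaf and other cell types 5 had a named probe set, and none differed between the groups by limma. LHCB4.1, a light-harvesting gene of green leaf cells, had signals of 7873, 8166 and 7870 in heterozygous CesA4 and 7475 and 6973 in heterozygous CesA6 plants. The root gene PYK10 had 309.0, 177.8 and 101.3 against 121.4 and 97.3 (log2 difference 0.69 ± 0.38, SE, adjusted p = 0.42). The guard-cell gene FMA had a log2 difference of 0.21 ± 0.34, and the pollen gene AT3G28750 and the meristem gene CLV3 stayed below a signal of 14 on all 5 arrays.

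Values are MAS5 signals on a linear scale as deposited. A log2 difference is heterozygous CesA4 minus heterozygous CesA6 on the scale log2(signal + 3.2), which understates differences of dim probe sets. The error of a log2 difference is a standard error of the fit, the error of a mean signal an SD between arrays. A gene passed where the adjusted p was below 0.05, by limma with Benjamini-Hochberg over all probe sets. Limma called 1109 of 22746 probe sets (4.88%), 479 higher (2.11%) and 630 lower (2.77%) in heterozygous CesA4 plants. For all 479 and all 630 of them the groups did not overlap, beside 15% (CesA4 higher) and 18.8% (CesA4 lower) of all probe sets. A call rests on the same values, so the lack of overlap is no separate support for it. Differences of at least 2-fold were seen for 132 of the higher and 327 of the lower probe sets, and the median log2 difference was 0.81 among the higher, -1.02 among the lower and -0.05 over all probe sets. Calls followed brightness. Of the 5687 brightest probe sets, with a mean signal above 108, 13.9% were called, against 4.78% between 35.6 and 108, 0.844% between 8.39 and 35.6 and 0.0176% below. The count of 1109 changed when single arrays were left out. With heterozygous CesA4 replicate 1, 2 or 3 out it was 728, 1009 or 737. It fell further with either heterozygous CesA6 array out. That leaves a single array in the group, which widens the error whichever array is dropped. The cause of the fall was not tested. Dropping the trend and robust options of eBayes left 4 calls. Of the 68 called genes picked by the naming rule, 45 missed the threshold with replicate 1 of heterozygous CesA6 out and 32 with its replicate 2 out, against 22, 18 and 12 with heterozygous CesA4 replicate 1, 3 or 2 out.

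**Figure D1:**
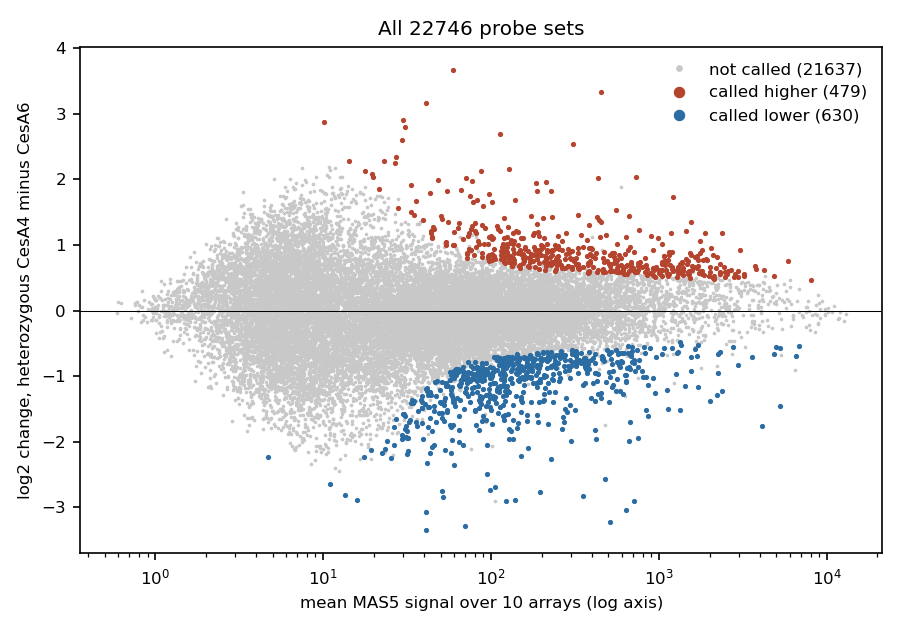
Log2 difference between heterozygous CesA4 and heterozygous CesA6 plants (vertical axis) against the mean MAS5 signal over 10 arrays (horizontal, log axis) for each of 22746 probe sets, with the 479 called higher in red, the 630 called lower in blue and the rest in grey. Called probe sets are few below a signal of 35.6, and more of the lower than of the higher ones lie beyond a log2 difference of 1.

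The named genes with the largest higher values in heterozygous CesA4 plants were of several kinds. The expansin-like gene EXLA1 (AT3G45970), of a family related to the wall-loosening expansins, had signals of 711.5, 865.6 and 991.2 in heterozygous CesA4 and 121.8 and 167.2 in heterozygous CesA6 plants. Every CesA4 array lay far above both CesA6 arrays, and the log2 difference was 2.54 ± 0.26 (adjusted p = 9.32e-07). AT4G16563, of the aspartyl protease family, had the largest difference of all named genes that passed, with 145.4, 177.2 and 222.2 in heterozygous CesA4 against 4.887 and 22.14 in heterozygous CesA6 plants. Its log2 difference was 3.67 ± 0.54 (adjusted p = 6.92e-05), and the SD between arrays was 38.6 in heterozygous CesA4 and 12.2 in heterozygous CesA6 plants. AT1G50040, a gene of unknown function, stood at 133.9, 118.8 and 101.9 against 2.918 and 26.51, a difference of 3.16 ± 0.67. The glycine-rich protein gene AT5G28630 had 29.5, 32.8 and 30.48 in heterozygous CesA4 plants and was near the bottom of the scale in heterozygous CesA6 plants, at 1.086 and 1.794. Its difference of 2.88 ± 0.65 is shrunken, since the CesA6 mean lay below the pseudocount, and the same holds for the heavy-metal-associated protein gene AT1G23000, at 2.27 ± 0.64. AT4G25780, of the secreted CAP family that includes PR-1, averaged 27.43 ± 4.11 in heterozygous CesA4 and 3.283 ± 2.45 in heterozygous CesA6 plants (SD, n = 3 and 2), and the glutaredoxin-family gene AT4G15680 averaged 45.45 ± 15.4 and 7.053 ± 3.59.

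Regulatory and signalling genes also stood in the higher set. The Pto-interacting-type kinase gene AT3G59350 had 117.7, 132.0 and 197.2 in heterozygous CesA4 against 29.5 and 37.69 in heterozygous CesA6 plants (log2 difference 2.02 ± 0.29, adjusted p = 5.17e-05). The AP2/ERF transcription factor gene AT1G77640 had 103.5, 125.7 and 131.1 against 36.47 and 20.9 (1.99 ± 0.51, adjusted p = 0.0197). AT2G27080, of the NDR1/HIN1-like membrane protein family known from pathogen responses, differed by 2.12 ± 0.41. AT4G37240 and AT3G19200, to which no role is given here, differed by 2.16 ± 0.47 and 2.04 ± 0.61. Of these 12 genes with the largest higher values, the call was lost in 1 alternative for EXLA1, AT4G16563 and AT3G59350, in 9 for AT1G23000, in 8 for AT1G77640 and in 2 to 7 for the rest, of 12 to 15 alternatives each.

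**Figure D2:**
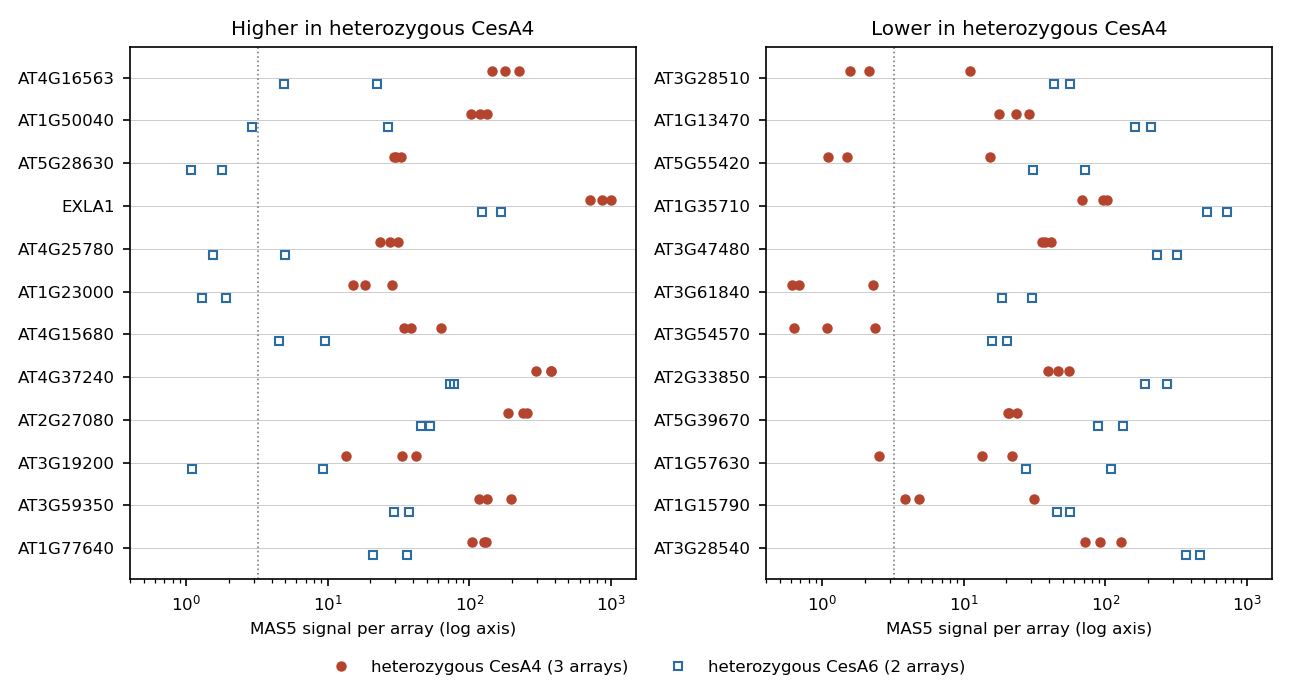
MAS5 signal on each array (horizontal, log axis) of the 12 named genes with the largest higher and the 12 with the largest lower log2 difference among those that passed, with filled red circles for the 3 heterozygous CesA4 arrays, open blue squares for the 2 heterozygous CesA6 arrays and a dotted line at the pseudocount of 3.2. The groups do not overlap for any of the 24 genes, which the choice of genes required, and several of the genes lie below the dotted line on some arrays.

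The named genes with the largest lower values in heterozygous CesA4 plants included a receptor kinase and calcium-binding proteins. The leucine-rich-repeat receptor kinase gene AT1G35710 had 95.86, 68.34 and 102.9 in heterozygous CesA4 and 722.1 and 521.5 in heterozygous CesA6 plants. The groups lay well apart, with a log2 difference of -2.76 ± 0.23 (adjusted p = 1.34e-08), and the call held in all 15 alternatives. AT3G47480, which encodes a calcium-binding EF-hand protein, had 37.42, 41.0 and 35.67 against 317.8 and 230.0 (-2.73 ± 0.30, adjusted p = 9.32e-07). AT5G39670, also an EF-hand gene, differed by -2.17 ± 0.39, and CML41 (AT3G50770), a calmodulin-like protein of plasmodesmata in defence, had 23.25, 34.26 and 29.86 against 210.3 and 79.5 (-2.05 ± 0.33). The CesA4 arrays of CML41 lay close together, while the CesA6 arrays were far from each other. Of the 8 measured calmodulin and calcium-sensor genes CML41 alone passed, and their median was -0.31.

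A chitinase, ATPases and a glutaredoxin were lower too. The chitinase gene CHI (AT2G43570) had 73.52, 95.95 and 68.75 in heterozygous CesA4 against 450.7 and 176.1 in heterozygous CesA6 plants (-1.80 ± 0.27, adjusted p = 0.000281). The AAA-ATPase genes AT3G28510 and AT3G28540, which lie near each other on chromosome 3, differed by -2.88 ± 0.74 and -2.10 ± 0.28. For AT3G28540 the signals were 71.3, 129.4 and 91.19 against 467.2 and 368.3. AT1G13470, without a role given here, had 17.62, 29.04 and 23.43 against 211.1 and 162.8 (-2.85 ± 0.55, adjusted p = 0.00161). The TIR-domain gene AT1G57630, of the type found in immune receptors, had 21.78, 13.35 and 2.53 against 109.3 and 27.65 (-2.14 ± 0.59), with the lower CesA6 array just above the highest CesA4 array. GRX480 (AT1G28480), a salicylate-induced glutaredoxin that binds TGA factors, had 40.61, 33.45 and 38.59 against 111.4 and 114.9 (-1.52 ± 0.30, adjusted p = 0.00179), and it was the single measured gene of a list of 32 salicylate defence genes. AT2G33850 and AT1G76960, to which no role is given here, differed by -2.22 ± 0.23 and -1.95 ± 0.21. AT5G55420, AT3G61840, AT3G54570 and AT1G15790 differed by -2.81 ± 0.76, -2.64 ± 0.76, -2.23 ± 0.60 and -2.11 ± 0.59, with heterozygous CesA4 means below the pseudocount for AT3G61840 and AT3G54570, and their calls were lost in 7 to 10 of 12 or 13 alternatives. The call was also lost in 7 of 13 alternatives for AT1G57630 and 6 of 13 for AT3G28510. On the lower side 8 called probe sets to which the annotation used here gives no single gene went beyond these, down to -3.35 on the log2 scale, and on the higher side none did.

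The heterozygous CesA6 arrays were not alike in these genes. Replicate 1 had the higher signal for 432 of the 630 lower probe sets (68.6%), against 46.2% of all probe sets and 35.1% of the higher ones. The lower probe sets thus stood farther from the CesA4 arrays in replicate 1 more often than in replicate 2. For the higher probe sets the farther CesA6 array is the one with the lower signal. At 35.1% that array was replicate 1 more often too, so the pattern was not particular to the lower ones.

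Gene lists were then read by role, with 26 lists that had at least 4 measured genes. Among the 13286 named genes 1.63% were higher and 2.13% lower (3.76% together), with a median of -0.04. These shares include dim genes, which were rarely called. In bulk rosettes fewer cells of a type and less RNA per cell cannot be told apart. Of 29 genes of the xyloglucan endotransglucosylase and expansin families, which remodel and loosen walls, 3 were higher and none lower, with a median of 0.13. Besides EXLA1 these were EXLA2 (AT4G38400), with 153.6, 180.9 and 192.8 in heterozygous CesA4 against 50.62 and 53.38 in heterozygous CesA6 plants (1.69 ± 0.27, adjusted p = 0.00018), and EXGT-A3 (AT2G01850), with 613.0, 705.9 and 790.1 against 348.4 and 406.8 (0.89 ± 0.17). The third member of the EXLA family, EXLA3, had a value of 1.17 ± 0.67, short of the threshold (adjusted p = 0.415). Over the 29 genes 16 values were positive and 13 negative, and those that did not pass ran from -1.65 ± 0.75 for EXPA24 to 1.81 ± 0.66 for XTH33.

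Of 7 tubulin genes, whose products form the microtubules that guide cellulose synthase, all 7 had positive values and 2 passed. TUB5 (AT1G20010) averaged 287.8 ± 34.1 in heterozygous CesA4 and 178.3 ± 19.6 in heterozygous CesA6 plants (0.68 ± 0.20), and TUB7 (AT2G29550) 275.3 ± 40.3 and 166.6 ± 2.78 (0.70 ± 0.19). The median of the list was 0.35, and both calls were lost in 6 of 15 alternatives. Values of genes of the same family need not be independent. In homozygous plants no tubulin gene passed and the median was 0.28, with TUB5 at 0.71 ± 0.20 and TUB7 at -0.06 ± 0.19. In the list of abscisic acid, drought and cold genes 4 of 14 were higher and 1 lower, with a median of 0.27. The higher ones encode proteins made in cold or drying leaves. COR47 (AT1G20440), a dehydrin gene, had 3117, 2821 and 3439 in heterozygous CesA4 against 1600 and 1698 in heterozygous CesA6 plants (0.92 ± 0.14, adjusted p = 7.49e-05). The chloroplast protein genes COR15A and COR15B differed by 0.75 ± 0.15 and 0.87 ± 0.18, and the dehydrin gene LTI30 by 0.77 ± 0.16. XERICO, a RING-type gene that promotes abscisic acid accumulation, was lower (-0.77 ± 0.19, adjusted p = 0.0127). The histone list of 7 had HTB1 higher at 0.61 ± 0.18 and the drought-inducible linker histone HIS1-3 lower at -0.96 ± 0.25, with a median of 0.05, and these calls were lost in 9 (HTB1) and 6 (HIS1-3) of 15 alternatives.

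The jasmonate list was split. THI2.1 (AT1G72260), an antimicrobial thionin, had 280.9, 258.7 and 138.9 in heterozygous CesA4 against 83.11 and 110.2 in heterozygous CesA6 plants (1.15 ± 0.26, adjusted p = 0.0133). OPCL1 (AT1G20510), a ligase of jasmonate synthesis, had 373.7, 285.4 and 214.7 against 623.6 and 585.4 (-1.08 ± 0.21, adjusted p = 0.00142). The other 4 of the 6 measured genes did not pass, among them the defensin gene PDF1.2 at -0.49 on the log2 scale, and the list median was -0.44.

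Among the lists with lower members, the autophagy list had 11 measured genes and all 11 had negative values, with a median of -0.67 beside -0.04 for all named genes, of which 7044 of 13286 were negative. Of the 11 genes 3 passed (27.3% against 3.76% of named genes). The 3.76% includes dim genes, which were rarely called, and of the brightest 5687 probe sets 13.9% were called. ATG8F (AT4G16520) had 377.5, 359.7 and 367.6 in heterozygous CesA4 against 564.5 and 609.5 in heterozygous CesA6 plants (-0.67 ± 0.16, adjusted p = 0.0111). APG8H (AT3G15580) had 263.9, 450.8 and 351.2 against 650.4 and 519.1 (-0.74 ± 0.19), and ATG8B (AT4G04620) averaged 47.56 ± 17.7 against 90.46 ± 11.5 (-0.93 ± 0.26). ATG8 proteins are ubiquitin-like and decorate the autophagosome membrane. Most of the list is this family, whose members resemble each other in sequence, so their values need not be independent. The calls were lost in 3, 6 and 9 of 15 alternatives in the order given. ATG3, the enzyme that attaches ATG8 to lipid, stood at -0.39 ± 0.19 and did not pass.

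Enzymes of conjugation and of flavonoid colour were lower where they passed. Of 51 UDP-glycosyltransferase genes 6 were lower and none higher, with a median of -0.17 and UF3GT and UGT74B1, which other lists hold too, among the 6. UGT87A2 (AT2G30140) had 110.4, 86.82 and 102.6 in heterozygous CesA4 against 294.3 and 234.2 in heterozygous CesA6 plants (-1.37 ± 0.19, adjusted p = 2.59e-05), and GT72B1 (AT4G01070), which conjugates xenobiotics and lignin precursors, differed by -0.79 ± 0.16. In the anthocyanin list DFR (AT5G42800) had 424.9, 393.6 and 404.4 against 694.9 and 865.2 (-0.92 ± 0.18, adjusted p = 0.00155) and UF3GT (AT5G54060) averaged 188.3 ± 24.5 against 325.5 ± 47.2 (-0.78 ± 0.19). The other 4 of its 6 measured genes did not pass, and the median was -0.09. Of 6 genes of alternative respiration and oxidative stress 2 were lower, the zinc-finger stress regulator STZ at -0.89 ± 0.20 and the mitochondrial NADH dehydrogenase NDB2 at -0.66 ± 0.19, with a median of -0.65. The call of NDB2 was lost in 8 of 15 alternatives.

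In the secondary wall list 1 of 28 genes passed, IRX15-L (AT5G67210), which is needed for xylan synthesis. It had 48.72, 56.23 and 37.62 in heterozygous CesA4 against 123.8 and 107.1 in heterozygous CesA6 plants (-1.24 ± 0.21, adjusted p = 0.0005), while the list median was -0.19 and its relative IRX15 was dim on all arrays. None of 8 genes of the cellulose synthase family passed. These are all cellulose-synthase-like genes, with a median of -0.05. Among 69 chloroplast-encoded genes psbK and rpl33 were lower, with a median of -0.17. The photosystem II subunit gene psbK had 351.2, 635.9 and 593.0 against 1967 and 1981 (-1.95 ± 0.25, adjusted p = 8.87e-05), and rpl33, of the chloroplast ribosome, differed by -1.01 ± 0.24, a call lost in 5 of 15 alternatives. Of 9 nuclear photosynthesis genes none passed, and RCA, the Rubisco activase gene, averaged 10360 ± 555 against 10490 ± 237.

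Calls came from 6 further lists. JAL23, a jacalin lectin gene, was lower (-1.26 ± 0.23) and NAI2, needed to form endoplasmic reticulum bodies, was higher (0.90 ± 0.26) in a list of 28 with a median of -0.12. The peroxidase gene PRX52 was lower (-1.06 ± 0.28, 1 of 6), as were the cytochrome P450 gene CYP71B6 (-0.64 ± 0.18, 1 of 23), UGT74B1 of glucosinolate synthesis (-0.67 ± 0.18, 1 of 4) and AT1G68570 of the nitrate transporter family (-0.59 ± 0.17, 1 of 12). The gene listed as AGL26 was higher (0.95 ± 0.21, 1 of 44 flowering-time and MADS-box genes). Of 15 alternatives, 8 lost the calls of NAI2 and AT1G68570, 7 that of CYP71B6, 6 that of UGT74B1, 5 that of PRX52 and 2 those of JAL23 and AGL26. In the shorter lists GID1B (AT3G63010), a gibberellin receptor, had 14.07, 20.46 and 9.944 in heterozygous CesA4 against 34.09 and 59.39 in heterozygous CesA6 plants (-1.46 ± 0.35), and the sulphate-assimilation gene APS4 differed by -0.74 ± 0.22. The call of APS4 was lost in 10 of 15 alternatives, each array left out and the replicate block among them. No gene passed in 8 lists with 81 entries, which were the WRKY factors, nuclear photosynthesis, the cellulose synthase family, lignin, auxin, cytokinin, senescence and sugar starvation, and glutathione S-transferases. Their medians ran from -0.47 for senescence and sugar starvation to 0.10 for nuclear photosynthesis.

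**Figure D3:**
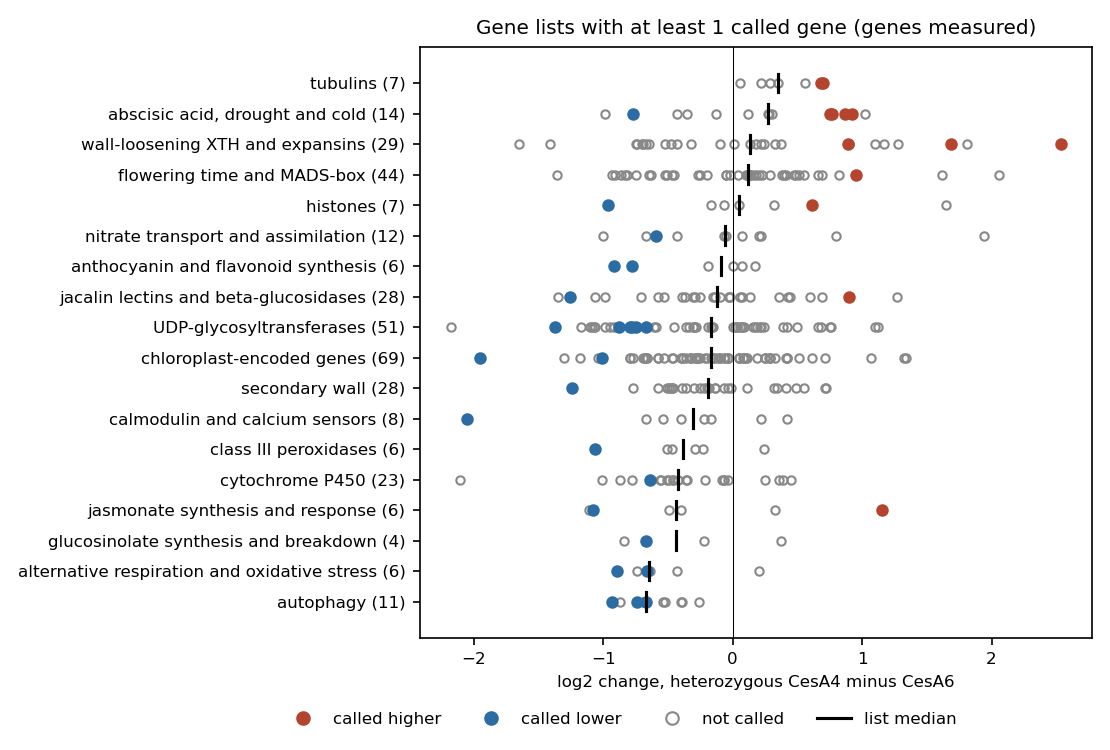
Log2 difference, heterozygous CesA4 minus heterozygous CesA6, of every measured gene (points) in the 18 lists with at least 1 called gene, with called genes in red (higher) or blue (lower), others as open circles and a black bar at the list median. The tubulin list lies wholly above 0 and the autophagy list wholly below it, while most lists spread over both sides.

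The same lines were compared in their homozygous plants, on 5 arrays that the heterozygous comparison does not use. Limma called 204 probe sets there (0.897%), 100 higher (0.44%) and 104 lower (0.457%) in homozygous CesA4 plants. In separate fits of 5 arrays each, which share no array, 1043 probe sets (4.59%) were called in heterozygous and 153 (0.673%) in homozygous plants. Both fits called 81 in the same direction, 7.77% of the heterozygous and 52.9% of the homozygous calls, and 1 in opposite directions. Of the heterozygous calls 75.5% had the same sign in homozygous plants, 67.0% of the higher and 82.2% of the lower ones, against 54.6% of all probe sets. Their median log2 difference in homozygous plants was 0.12 for the higher and -0.34 for the lower calls, beside 0.83 and -1.04 in heterozygous plants. These probe sets were picked on their heterozygous values, which tends to enlarge the heterozygous medians but not the homozygous ones. The line differences of the genotypes had a Pearson's r of 0.134 and a Spearman's rho of 0.118 over 22746 probe sets, as a description, since probe sets are no replicates. Line and any step of growth or processing that went with line cannot be told apart in either genotype.

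**Figure D4:**
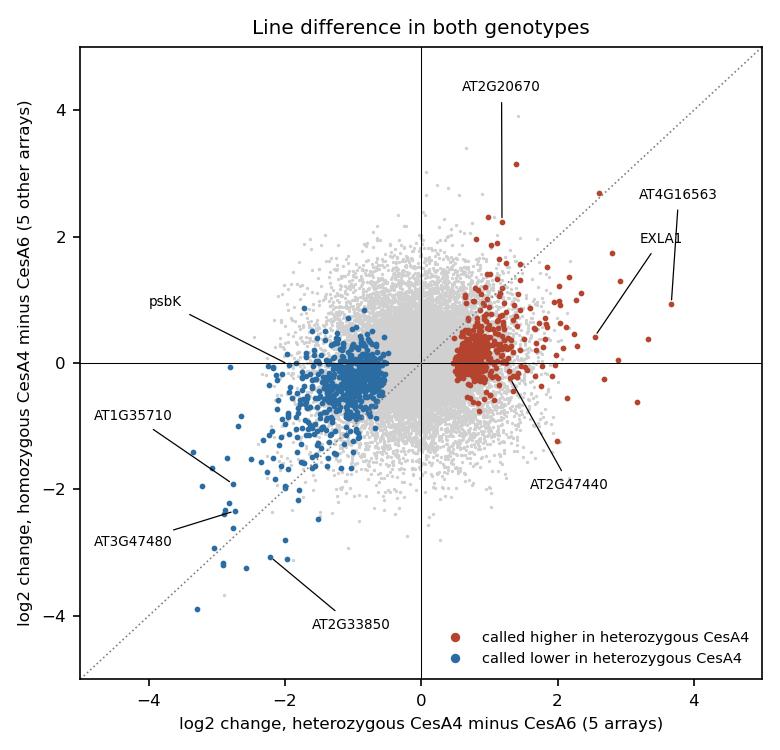
Log2 difference between the CesA4 and CesA6 lines in heterozygous plants (horizontal axis, 5 arrays) and in homozygous plants (vertical axis, 5 other arrays) for all probe sets, with those called in heterozygous plants in red or blue and a dotted line of equal differences. Most called points lie nearer to the horizontal axis than to the dotted line, and a tail of lower probe sets with AT2G33850 and AT3G47480 lies along the dotted line. The called points were picked on their heterozygous values.

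Some genes differed between the lines in both genotypes, the EF-hand gene AT3G47480 and the receptor kinase gene AT1G35710 among them. AT3G47480 averaged 38.03 ± 2.72 against 273.9 ± 62.1 in heterozygous and 21.66 ± 6.60 against 127.2 ± 63.1 in homozygous plants, a log2 difference of -2.34 ± 0.30 in homozygous plants. AT2G33850 averaged 46.71 ± 8.09 against 230.3 ± 56.3 in heterozygous and 43.83 ± 3.75 against 392.6 ± 72.7 in homozygous plants. AT1G35710, CHI and AT1G76960 differed by -1.91 ± 0.23, -2.17 ± 0.27 and -1.68 ± 0.21 in homozygous plants. On the higher side AT3G59350, AT5G62360 of the pectin-methylesterase-inhibitor type, the DUF506 gene AT2G20670, the RING-finger gene AT1G14200 and AT5G19120 passed in both genotypes, at 1.21 ± 0.29, 1.57 ± 0.30, 2.24 ± 0.21, 1.33 ± 0.25 and 1.64 ± 0.20 in homozygous plants, beside 2.02 ± 0.29, 1.44 ± 0.30, 1.18 ± 0.21, 1.12 ± 0.25 and 1.14 ± 0.20 in heterozygous plants. In the fit of all arrays 102 probe sets passed in both with the same sign, 39 higher and 63 lower. For the 10 genes named here limma's test of the difference between genotypes did not pass (adjusted p from 0.153 to 0.962). They were chosen for large differences of the same sign in both genotypes, so this outcome is partly built in.

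A difference that depended on genotype was called for 87 probe sets (0.382%), 62 of which were also called in heterozygous plants, where 4.88% of all probe sets were called. The tested value contains the heterozygous line difference, so this overlap is partly built in. EXLA1 averaged 856.1 ± 140 against 144.5 ± 32.1 in heterozygous plants and 52.71 ± 16.1 against 39.74 ± 19.3 in homozygous plants, where both lines were low (difference of the line differences 2.13 ± 0.37, adjusted p = 0.00683). AT2G47440, a tetratricopeptide-repeat gene, averaged 856.3 ± 45.8 against 354.9 ± 115 in heterozygous and 98.94 ± 8.52 against 117.6 ± 20.7 in homozygous plants (1.53 ± 0.28, adjusted p = 0.00716). The PLATZ-type gene AT1G32700 averaged 91.66 ± 12.7 against 283.3 ± 59.3 and 155.9 ± 10.6 against 161.4 ± 29.7 (-1.55 ± 0.29), and AR781 had 89.13 ± 2.23 against 242.3 ± 20.1 and 70.34 ± 7.76 against 56.05 ± 22.1 (-1.77 ± 0.33). The TIR-type resistance gene AT4G19530 was higher in heterozygous CesA4 plants (0.85 ± 0.22) and stood at -0.76 ± 0.22 in homozygous plants (1.61 ± 0.31, adjusted p = 0.0131), and its call in heterozygous plants was lost in 7 of 15 alternatives. For psbK the homozygous lines averaged 379.1 ± 56.0 and 399.6 ± 163, both below the heterozygous CesA4 mean of 526.7 ± 154. None of the 11 autophagy genes passed in homozygous plants, where their median was -0.01, and none passed the test of the difference. With heterozygous CesA6 replicate 1 out the count of 87 was 19, and with replicate 2 out 20. It was 42 or 35 with heterozygous CesA4 replicate 1 or 3 out, 46 with homozygous CesA4 replicate 1 out and 21 with homozygous CesA6 replicate 2 out.

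**Figure D5:**
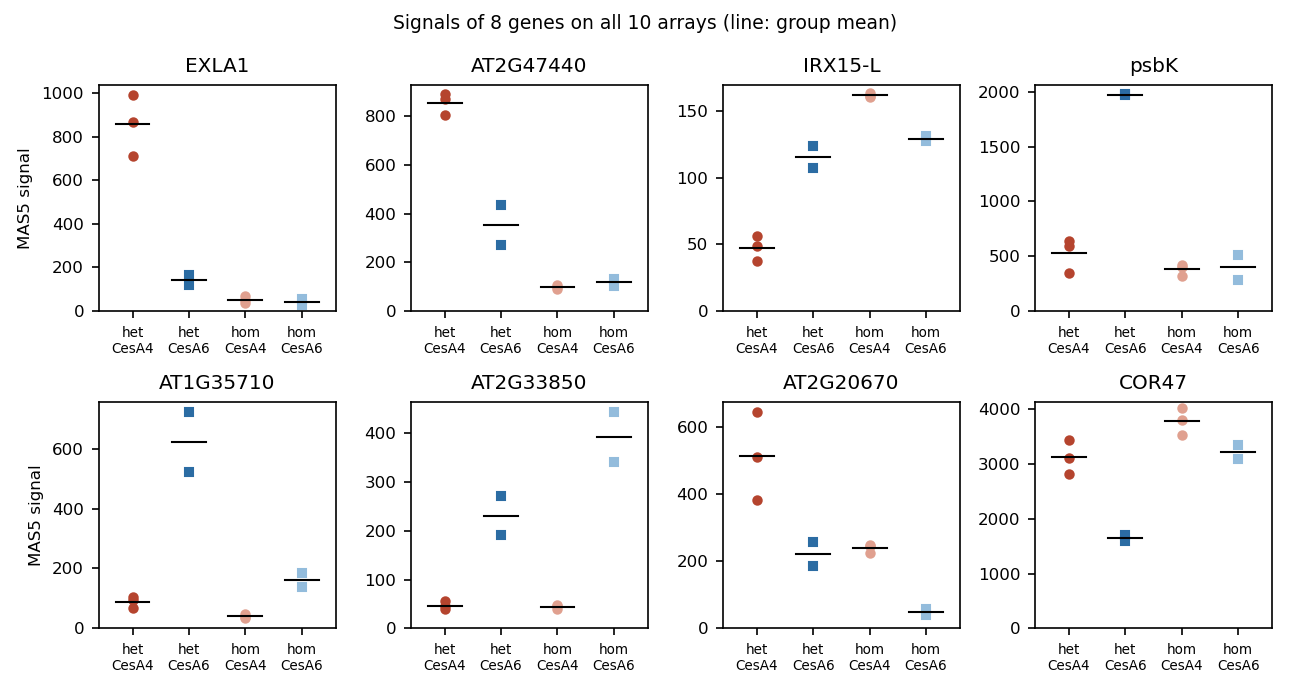
MAS5 signal of 8 named genes on each of the 10 arrays (points), with heterozygous (het) CesA4, het CesA6, homozygous (hom) CesA4 and hom CesA6 from left to right and a line at each group mean. EXLA1, AT2G47440, IRX15-L and psbK differ between the lines in heterozygous plants and less in homozygous plants, while AT1G35710, AT2G33850 and AT2G20670 differ in both.

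Called genes were spread over the genome. Between 1.5% and 1.94% of the named genes on chromosomes 1 to 5 were higher and between 1.81% and 2.48% lower, beside 1.63% and 2.13% over all named genes. Among the 50 named genes nearest to CESA4 (AT5G44030) in locus order, 1 was higher and 1 lower, with a median of -0.06. The higher one, AT5G44020, of the acid-phosphatase type, is the nearest named gene on one side of CESA4. It had 425.3, 441.3 and 565.3 in heterozygous CesA4 against 183.0 and 170.7 in heterozygous CesA6 plants (1.41 ± 0.24, adjusted p = 0.000405), and a difference of -0.23 ± 0.24 in homozygous plants (difference between genotypes 1.63 ± 0.34, adjusted p = 0.0216). The nearest named gene on the other side, AT5G44050, stood at 0.62 ± 0.28 and did not pass. Around CESA6 (AT5G64740) 1 of 50 genes was higher and none lower, and around COBL4 none of 50 passed.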

How the data were processed

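RNA of 10 Affymetrix ATH1 arrays was measured, 5 of them from heterozygous plants. The authors deposited linear intensities, which the submitters' processing notes tie to MAS5 and GCOS, whose versions are not given in the sources used here. From the values, every array had been scaled to the same trimmed mean, and no detection calls were used. A pseudocount of 3.2 was added, log2 taken, and a mean per group fitted to all 10 arrays with limma 3.58.1 (R 4.3.3; eBayes with trend and robust; 6 residual degrees of freedom), without a filter on low values. The number of arrays limits the precision. An exact permutation test of 3 against 2 arrays cannot go below p = 0.1, so none was used.

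On simulated data with 22746 probe sets, 200 drawn at random were changed, with independent normal noise on each array. The heterozygous contrast recovered 2.99%, 19.4% and 45.5% of probe sets given log2 changes of 0.5, 1 and 2, with 2 false calls. The adjusted p depends on how many probe sets change, and 1109 were called in the data, so these shares need not hold there. Noise shared between probe sets was not simulated.

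The platform annotation of GEO gave 13513 probe sets 1 gene and 503 several, and left 8730 unnamed. By gene ID 13436 were matched to TAIR10.1, used for symbols and locus order only. The brightest probe set stood for a gene. In all, 43 gene lists were made from loci and symbol patterns, and 26 had at least 4 measured genes. Members and lists were chosen with earlier results of these data known, and 5 patterns were corrected after values were seen, since they took in genes of other families. The text names the 12 genes per direction with the largest difference among those that passed without overlap. It also names up to 3 called members of each list and up to 2 bright members of lists without a call. Of the 15 higher and 20 lower named genes that passed in both genotypes without overlap, it names 5 per direction. These were the genes whose smaller difference of the 2 genotypes was largest. Up to 5 genes whose difference between genotypes passed were named too. Others in the text were chosen after their values were seen. Alternatives were other pseudocounts, filters, normalization and eBayes settings, a replicate block, and each array left out.

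Replicate numbers in the titles are shared by the groups. Same-numbered heterozygous arrays had correlations of their deviations of -0.0101 and -0.0292. Same-numbered homozygous and heterozygous CesA4 arrays had 0.019, 0.0783 and 0.0578, beside -0.075 to 0.0249 for those with different numbers. The CesA6 groups of 2 arrays have mirror-image deviations, so pairs with them say little. The check does not decide whether the numbers pair the samples, and the main fit did not use them.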

Additional observations from a re-analysis of the deposited data

Results flagged for a closer look

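For 11 of the genes given the difference between the lines itself differed between heterozygous and homozygous plants, by limma's test of that difference. The value given is the heterozygous line difference minus the homozygous one, on the log2 scale. It was positive for EXLA1 (2.13), AT1G77640 (3.23), AT2G47440 (1.53), AT4G19530 (1.61) and AT5G44020 (1.63), the last given as a neighbour of CESA4. It was negative for IRX15-L (-1.56), JAL23 (-1.57), STZ (-1.27), psbK (-1.92), AT1G32700 (-1.55) and AR781 (-1.77). Of these, EXLA1, AT2G47440, AT1G32700, AR781 and AT4G19530 were chosen for the size of this test. The rest were named with their call in heterozygous plants known. That line difference is part of the tested value, so the flag does not stand apart from their choice.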

How the results depend on the processing

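The heterozygous count of 1109 (479 higher, 630 lower) lay between 982 and 1370 with other pseudocounts, filters on low values, quantile normalization, eBayes with trend but not robust (chosen after seeing the data) or the 5 heterozygous arrays alone. With eBayes without trend and robust it was 4 (3 higher, 1 lower; 3101 with an unadjusted p under 0.05), the homozygous count 8 and that of the difference 0, where 1819 had an unadjusted p under 0.05; with the lowest 50% of probe sets also left out (chosen after seeing the data) the heterozygous count was 909. The difference between genotypes had 54 calls with trend but not robust. Leaving out 1 array gave 243 to 1009 heterozygous calls (104 to 395 higher, 139 to 614 lower), 114 to 185 homozygous calls and 19 to 125 calls of the difference. The cause of these changes was not tested. With a replicate block the counts were 1059, 249 and 126; the block changed the call of 10 of the 68 called genes among the 84 chosen by the naming rule. Of these 68, 17 kept their call in every alternative other than eBayes without trend and robust, where 66 lost it, and 45 lost it without heterozygous CesA6 replicate 1. No value of the 84 changed sign where it was called. Dim probe sets limit the comparison, with 0.0176% called among the dimmest 5687.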
